A study of Homo sapiens with 4 samples.

Results

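The genes described here are 55 genes of the interferon response, taken out of the 43450 gene IDs in the deposited expression table by matching a fixed set of gene symbols to their Ensembl IDs. They fall into 3 roles: 7 genes for the interferon receptors and the kinases and STAT2 that act directly behind them, 6 genes for sensors of RNA and DNA and their adaptors, and 42 genes that interferon is known to induce. The rule uses no measured value. The study compared polyadenylated RNA of BLaER1 cells, a human B cell leukaemia line with an inducible C/EBPα transgene, with and without knockdown of the long noncoding RNA HAL7. Each group had 2 libraries, numbered replicate 0 and replicate 1. For the knockdown, 3 LNA GapmeRs against HAL7, antisense oligonucleotides that direct RNase H to the bound RNA, were put into the culture medium without a transfection step. The sources used here do not give the treatment of the control cells, its duration, or whether replicates were separate cultures. A p-value below therefore speaks only of library-to-library spread, and that spread may be technical. Both groups are the same line, and every statement below is about that line alone.

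Interferons are secreted when a cell senses foreign or misplaced nucleic acid. RIG-I (DDX58) and MDA5 (IFIH1) bind RNA and signal through MAVS, whereas cGAS (MB21D1) binds DNA and signals through STING (TMEM173). Type I interferons bind the receptor IFNAR1/IFNAR2, whose kinases TYK2 and JAK1 phosphorylate STAT2. STAT2 acts in a complex with IRF9 that binds the interferon-stimulated response element in front of induced genes. Interferon gamma binds IFNGR1/IFNGR2 and signals through JAK1 and JAK2 to genes with a gamma-activated site. Many of the induced genes are also transcribed at a low level in cells that have met no interferon.

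Many promoters of the induced genes hold letters of the response element. A few are printed here because they belong to members with small p-values below, to neighbouring pairs or, for IFIH1, to a sensor. The sequences are RefSeq promoter windows on GRCh38.p14, which run from 250 bases before to 50 bases after an annotated start. Each is given 5′ to 3′ along the strand of its gene, and the capitals mark the letters that match GAAANNGAAA, or TTTCNNTTTC, which is the same motif on the other strand. The stretches are, for ISG15 chr1:1013369-1013414 (plus strand), for LGALS3BP chr17:78979957-78979996 (minus), for PARP14 chr3:122680795-122680834 (plus), for IFIT1 chr10:89392492-89392544 (plus), for HERC5 chr4:88456979-88457024 (plus), for SAMD9 chr7:93118091-93118130 (minus), for OAS3 chr12:112938316-112938355 (plus), for IFIH1 chr2:162318813-162318858 (minus), and for DTX3L (plus) and PARP9 (minus) the same bases, chr3:122564317-122564356.
ISG15: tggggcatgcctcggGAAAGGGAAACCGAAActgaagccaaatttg
LGALS3BP: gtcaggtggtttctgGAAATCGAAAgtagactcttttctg
PARP14: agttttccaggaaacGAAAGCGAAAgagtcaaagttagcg
IFIT1: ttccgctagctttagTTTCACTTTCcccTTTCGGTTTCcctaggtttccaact
HERC5: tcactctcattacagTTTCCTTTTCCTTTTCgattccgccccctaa
SAMD9: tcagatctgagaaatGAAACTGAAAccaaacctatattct
OAS3: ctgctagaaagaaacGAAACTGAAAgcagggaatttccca
IFIH1: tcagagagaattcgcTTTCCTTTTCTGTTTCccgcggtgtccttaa
DTX3L: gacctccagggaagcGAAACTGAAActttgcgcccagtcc
PARP9: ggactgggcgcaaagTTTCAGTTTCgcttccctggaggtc

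ISG15 and HERC5 carry overlapping copies of the motif, and IFIT1 carries a pair of copies a few bases apart. DTX3L and PARP9 lie head to head and share 1 match, which reads GAAANNGAAA for one gene and TTTCNNTTTC for the other. Both strands were searched and overlapping matches were counted. Of 34796 windows of all genes in the RefSeq table, 3.57% held GAAANNGAAA, against 30 of the 61 windows (49.2%) of the 43 members that were listed there. By gene, 24 of 34 listed induced members (70.6%) had a match in at least 1 window, against 4.38% of all 27058 genes. Among the sensors, IFIH1 was the 1 of 3 listed genes with a match, and none of the 6 listed receptor and signalling genes had one. The gamma-activated letters TTCNNNGAA were in 9 of the 61 member windows (14.8%) and in 7.67% of all windows. A match describes these letters only, and binding was not measured.

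HAL7 (ENSG00000228427.1) stood at 0.726 and 0.613 FPKM in the controls and at 0.475 and 0.347 FPKM in the knockdown libraries. The unit, fragments per kilobase of transcript scaled to library size, was inferred from the tools and values. The knockdown mean was 0.614 times the control mean, the groups did not overlap, and limma gave a log2 change of -0.24 ± 0.11 (SE) with an adjusted p of 0.32. The lower HAL7 level in the knockdown libraries thus did not pass the test here. HAL7 averaged under 1 FPKM, where the log2(FPKM + 1) scale understates a change. With 0.1 in place of 1 added to FPKM, its log2 change was -0.60 ± 0.25 (limma adjusted p = 0.31). Depth, read from the steps between low FPKM values, was about 59.8 M fragments in control replicate 0 and 96.1 to 127 M in the other libraries, which puts 1 FPKM over a 2 kb transcript at 120 to 255 fragments. Of the B cell precursor markers, 11 of 11 matched genes were expressed, with a summed level of 3804 to 3924 FPKM per library. Of 12 matched macrophage markers only CSF1R and CD68 averaged at least 1 FPKM. The macrophage list summed to 36.7 to 40.3 FPKM per library, and S100A8 and S100A9 were listed at 0 in all 4. The T and NK cell list summed to 27.3 to 27.6 FPKM in the controls and 17.3 to 22.0 FPKM in the knockdown libraries, nearly all of it NKG7, while CD3D, CD3G and CD2 were listed at 0. No plasmacytoid dendritic cell marker averaged 1 FPKM.

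The line expressed most of the interferon machinery, and no interferon gene at a level that could be tested. All 7 receptor and signalling members, all 6 sensor members and 36 of the 42 induced members averaged at least 1 FPKM over the 4 libraries, the level required for testing. The 49 tested members averaged 1.93 to 78.3 FPKM with a median of 11.96 FPKM. FPKM is per length, but the annotation and strand handling behind it were not given, so the order of levels between genes is approximate. ADAR, the RNA-editing enzyme that marks cellular double-stranded RNA as self, was the highest, and RSAD2, which encodes the antiviral protein viperin, the lowest. Of the 21 interferon genes themselves, none reached 1 FPKM in any library: the highest single value was 0.211 FPKM and 9 were listed at 0 in all 4.

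**Figure D1:**
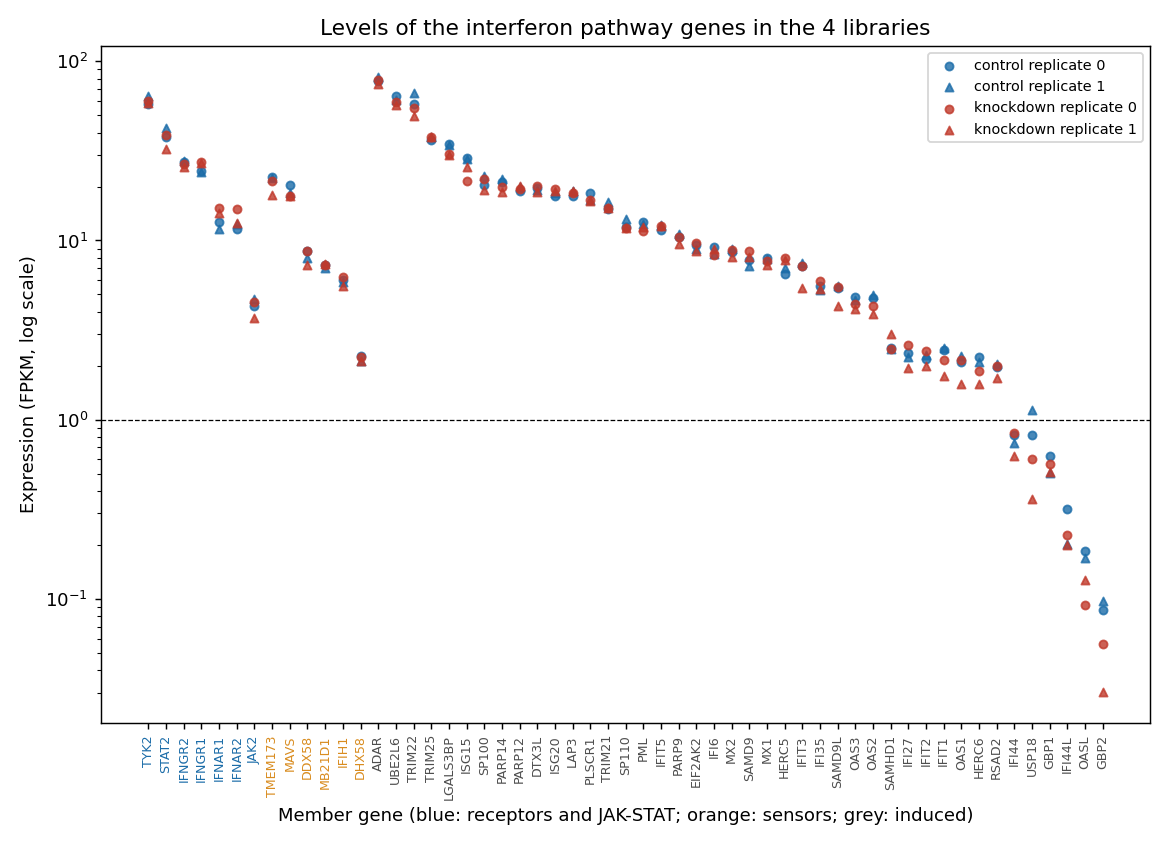
FPKM of each of the 55 members in each of the 4 libraries, on a log axis, grouped by role, with a dashed line at 1 FPKM, the mean level required for testing. The 49 tested members average 1.93 to 78.3 FPKM, and the points of the control and knockdown libraries lie close together for nearly all of them.

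No member passed the test between knockdown and control, and all fitted differences were small. In limma on log2(FPKM + 1), 0 of 49 members had an adjusted p under 0.05, where 0.0309% of the 12935 genes tested did, and the smallest adjusted p of a member was 0.20, that of IFNAR1. The ratio of knockdown to control mean ran from 0.792 for IFIT1 to 1.21 for IFNAR1, and 31 members lay within 10% of the control mean. Over the tested members, the 95% intervals of the log2 change, read as ratios of FPKM + 1, reached from 0.713 to 1.34 at their outer ends. Larger differences than those, on that scale, lie outside the intervals of these single genes. The ratio of FPKM itself can reach further, most of all for the 11 tested members that averaged under 5 FPKM. Without adjustment, 7 members (14.3%) had p under 0.05 on the lower side, against 9.35% of all genes, and 3 (6.12%) on the higher side, against 7.25% of all genes. With quantile-normalized libraries these counts were 4 lower and 3 higher. With 2 libraries on each side, exact permutation of the labels gives no p below 0.333, so limma's pooling of the spread across genes carries the test.

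The members leaned to lower values by a small amount. The log2 change was negative in 35 of 49 members (71.4%), against 53.2% of all genes tested, and its median was -0.06 against -0.01 over all genes. Both knockdown values lay below both control values in 18 members, or 36.7%, where 27.7% of all genes did so. Both lay above in 8 members, or 16.3%, against 22.5% of all genes. By role, the change was negative in 26 of 36 induced genes (median -0.07), 5 of 6 sensors (median -0.03) and 4 of 7 receptor and signalling genes (median -0.04). With the trend of the change with GC content removed, these medians were -0.07, -0.07 and 0.03. In a bulk sample, fewer cells that express a gene and less RNA per cell cannot be told apart.

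**Figure D2:**
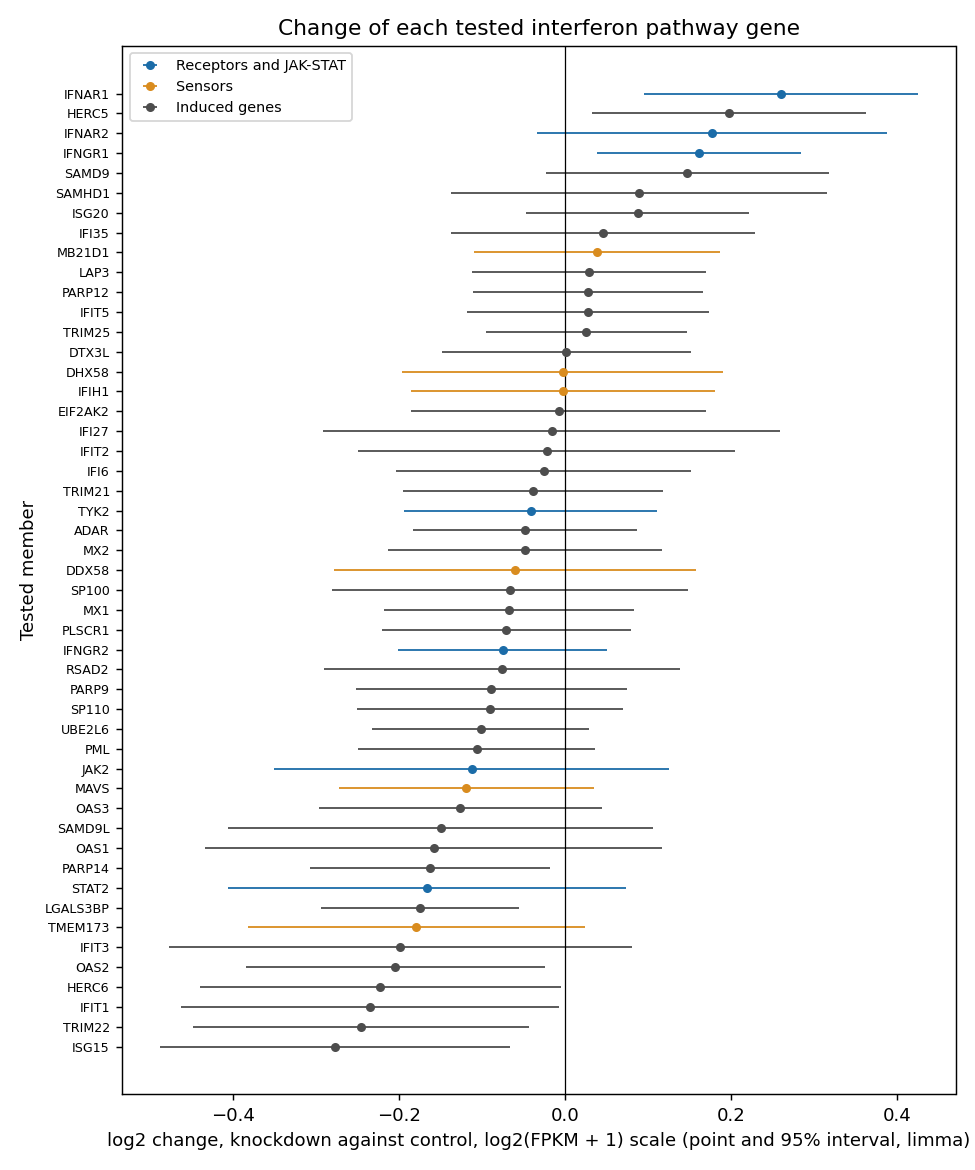
Log2 change of knockdown against control, on the log2(FPKM + 1) scale, with its 95% interval for each of the 49 tested members, by role. The points run from -0.28 (ISG15) to 0.26 (IFNAR1), and 10 of the 49 intervals leave out 0. Of these, 7 are lower (14.3% of tested members, against 9.35% of all genes) and 3 higher (6.12%, against 7.25%). None passes an adjusted p of 0.05.

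The lean lay mainly in 1 library. Knockdown replicate 1 held the lowest of the 4 values in 29 of 49 members (59.2%), against 28.2% of all genes tested. Knockdown replicate 0 held it in 5 members, against 3574 of the 12935 genes tested. Knockdown replicate 1 lay below knockdown replicate 0 in 41 members (83.7%), against 49.7% of all genes. Measured from the control mean, the median member stood at -0.10 in knockdown replicate 1 and at -0.01 in knockdown replicate 0, while the medians over all genes were -0.005 and -0.014. Without knockdown replicate 1, the median log2 change of the members was -0.01, with 27 of 49 negative, against -0.01 and 54.7% over all genes. Without knockdown replicate 0 it was -0.10, with 36 of 49 negative, against -0.005 and 51.3% over all genes. The median difference between the 2 knockdown libraries, -0.08 for replicate 1 minus replicate 0, was as large as the median difference between the groups.

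**Figure D3:**
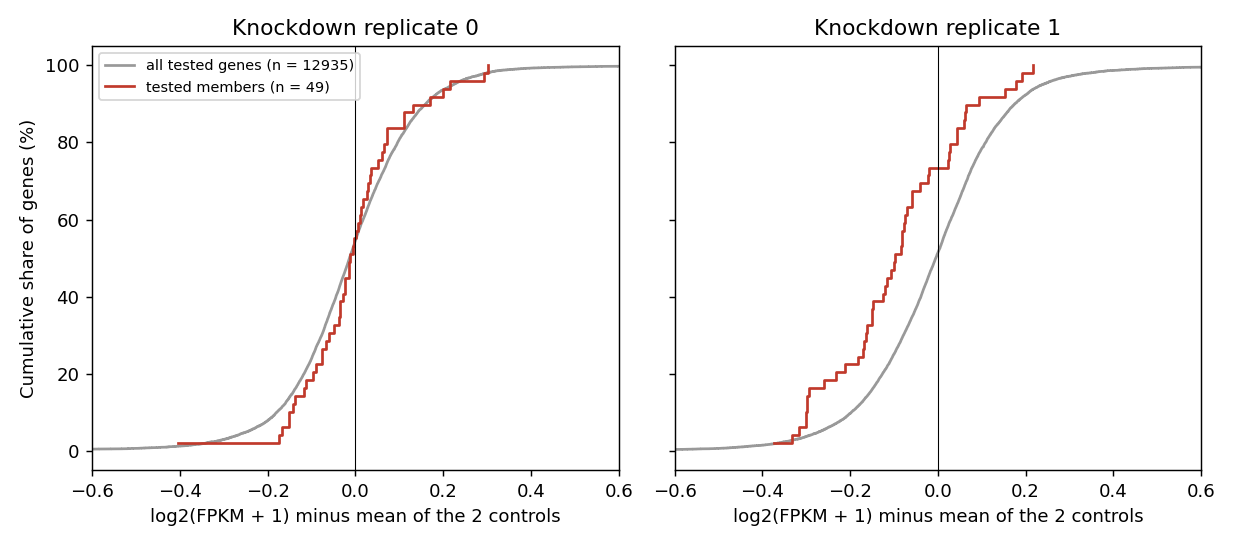
Cumulative share of genes against log2(FPKM + 1) minus the control mean, for knockdown replicates 0 and 1 separately, with the 49 tested members and all 12935 tested genes as separate curves. The members of knockdown replicate 1 are shifted to lower values (median -0.10), and those of knockdown replicate 0 lie near all genes (median -0.01).

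Other properties moved with the comparison. Across 12499 named genes, the GC content of a gene's transcripts and its log2 change had a Spearman rho of -0.43, given as a description over genes that share the same 4 libraries. Median GC was 47.4% in the tested members and 50.01% in all genes. With the GC trend removed, the members' median was -0.05 and 33 were negative, against 0.006 and 47.8% over all genes. All 10 genes of a cell cycle list were tested, and 9 were higher in the knockdown: their median log2 change was 0.18, 8 were higher at an unadjusted limma p under 0.05, against 7.25% of all genes, and their summed level was 427 to 448 FPKM in the controls and 488 to 516 FPKM in the knockdown libraries. The part of the cell cycle genes in the members' differences was not tested.

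Of the 4 receptor chains, 3 had higher values in both knockdown libraries and IFNGR2 had lower ones. Of all genes tested, 22.5% had both knockdown values above both controls and 27.7% had both below. None of the 4 chains passed the adjusted test. IFNAR1, a chain of the type I interferon receptor (chr21:33324477-33359862 on GRCh38), stood at 12.6 and 11.5 FPKM in the controls and at 15.1 and 14.2 FPKM in the knockdown libraries. Both knockdown values were above both controls, with means of 12.1 ± 0.779 and 14.6 ± 0.644 FPKM (SD, n = 2), a ratio of 1.21. The log2 change was 0.26 ± 0.07 (SE), with a limma p of 0.0080 and an adjusted p of 0.20. It was 0.25 with the GC trend removed. IFNAR2, the other chain and the high-affinity one, stood at 11.6 and 12.3 FPKM in the controls and at 14.9 and 12.5 FPKM in the knockdown libraries. Its groups did not overlap either, but knockdown replicate 1 was close to control replicate 1, and the log2 change of 0.18 ± 0.09 had a limma adjusted p of 0.36. It was 0.06 without knockdown replicate 0.

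IFNGR1, the ligand-binding chain of the interferon gamma receptor, stood at 24.5 and 24.0 FPKM in the controls and at 27.4 and 27.1 FPKM in the knockdown libraries. These were among the tightest values of any member, with means of 24.2 ± 0.340 and 27.2 ± 0.217 FPKM (SD, n = 2). The log2 change was 0.16 ± 0.05 (limma adjusted p = 0.23), and 0.09 with the GC trend removed. IFNGR2, the signalling chain of the same receptor, had lower knockdown values, 27.4 and 27.8 FPKM against 26.6 and 25.7 FPKM, a log2 change of -0.08 ± 0.05 with a limma adjusted p of 0.51. The 3 receptor genes on chromosome 21, IFNAR2, IFNAR1 and IFNGR2, lie side by side within chr21:33229901-33479348 and so did not share a direction. The difference between the 2 chains of either receptor was not tested. IFNAR2 shares exons with other transcripts and IFNGR2 with TMEM50B. Strand-specific counting is not stated, so some of their reads may belong to those genes.

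The groups overlapped in all 3 signalling genes behind the receptors. STAT2, which carries the type I signal to DNA together with IRF9, stood at 37.6 and 42.2 FPKM in the controls and at 38.9 and 32.2 FPKM in the knockdown libraries (log2 change -0.17 ± 0.10, limma adjusted p = 0.44). JAK2, the kinase of the gamma receptor, stood at 4.31 and 4.69 against 4.52 and 3.68 FPKM. TYK2, the kinase bound to IFNAR1, stood at 58.0 and 64.2 against 60.0 and 58.6 FPKM. Knockdown replicate 1 was the lowest library for STAT2 and JAK2, and the STAT2 change was -0.03 without it.

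The sensors differed little. TMEM173, which encodes STING, stood at 22.6 and 22.3 FPKM in the controls and at 21.5 and 18.0 FPKM in the knockdown libraries. Both knockdown values were lower, and most of the difference lay in replicate 1. The log2 change was -0.18 ± 0.08, with a limma adjusted p of 0.35, and -0.06 without knockdown replicate 1. MAVS, the mitochondrial adaptor of the RNA sensors, stood at 20.4 and 18.5 FPKM against 17.8 and 17.8 FPKM, a log2 change of -0.12 ± 0.06 with a limma adjusted p of 0.40. It was -0.05 without control replicate 0 and -0.18 without control replicate 1. These adaptors were the 2 sensor-side members whose knockdown values both lay below the controls (33.3% of sensors, against 27.7% of all genes).

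The receptors of nucleic acid themselves stood near their control level. DDX58, or RIG-I, was at 8.69 and 8.03 FPKM in the controls and at 8.69 and 7.31 FPKM in the knockdown libraries, a ratio of 0.957. MB21D1, or cGAS, was at 7.26 and 7.04 against 7.34 and 7.40 FPKM, a ratio of 1.03, and its knockdown values lay just above the controls. IFIH1, or MDA5, was at 6.02 and 5.86 against 6.29 and 5.58 FPKM (ratio 0.999). DHX58, or LGP2, a regulator of the other RNA sensors, was at 2.26 and 2.11 against 2.23 and 2.14 FPKM (ratio 0.997). For IFIH1 the 95% interval of the log2 change was -0.19 to 0.18, and for DHX58 it was -0.20 to 0.19. Changes of about that size in either direction remain possible at this spread.

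The ISG15 system was measured in several of its parts. ISG15, a ubiquitin-like protein that is attached to other proteins and also secreted, stood at 28.8 and 28.7 FPKM in the controls and at 21.4 and 25.8 FPKM in the knockdown libraries. Here knockdown replicate 0 was the lower one, and the means were 28.7 ± 0.0640 and 23.6 ± 3.08 FPKM (SD, n = 2), a ratio of 0.823. The log2 change of -0.28 ± 0.09 was the most negative of the tested members (limma adjusted p = 0.23). It was -0.17 with the GC trend removed and -0.15 without knockdown replicate 0. UBE2L6, the enzyme that passes ISG15 to its ligase, stood at 64.2 and 60.6 against 59.1 and 57.1 FPKM, a log2 change of -0.10 ± 0.05 with a limma adjusted p of 0.39, or -0.06 without control replicate 0.

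HERC5, the main ISG15 ligase, had higher values, 6.48 and 7.06 FPKM in the controls and 8.02 and 7.78 FPKM in the knockdown libraries. The groups did not overlap, with a ratio of 1.17 and a log2 change of 0.20 ± 0.07 (limma adjusted p = 0.25), or 0.11 with the GC trend removed. HERC6, its neighbour and a relative of the same family, was lower in both knockdown libraries, at 2.25 and 2.10 against 1.86 and 1.59 FPKM. Its log2 change was -0.22 ± 0.09 (limma adjusted p = 0.29), or -0.23 with the GC trend removed. HERC5 and HERC6 sit within chr4:88378739-88506163. TRIM25, an E3 ligase for RIG-I that is itself a target of ISG15, stood at 36.5 and 37.7 against 37.9 and 37.8 FPKM (ratio 1.02).

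USP18, which removes ISG15 and blocks IFNAR2 signalling, averaged under 1 FPKM and was not tested with the others. It stood at 0.826 and 1.13 FPKM in the controls and at 0.606 and 0.361 FPKM in the knockdown libraries, a ratio of 0.494. In a limma fit without the level requirement its log2 change was -0.42 ± 0.13, with an adjusted p of 0.44. USP18 has a near-identical copy, USP41, so its level is uncertain. The other 5 members under the level requirement were IFI44, IFI44L, OASL, GBP1 and GBP2, none above 0.846 FPKM in any library. The knockdown values lay below the controls for OASL (ratio 0.620) and GBP2 (ratio 0.470). The groups overlapped for IFI44, IFI44L and GBP1. In the same fit none of these 5 had a limma adjusted p below 0.44.

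**Figure D4:**
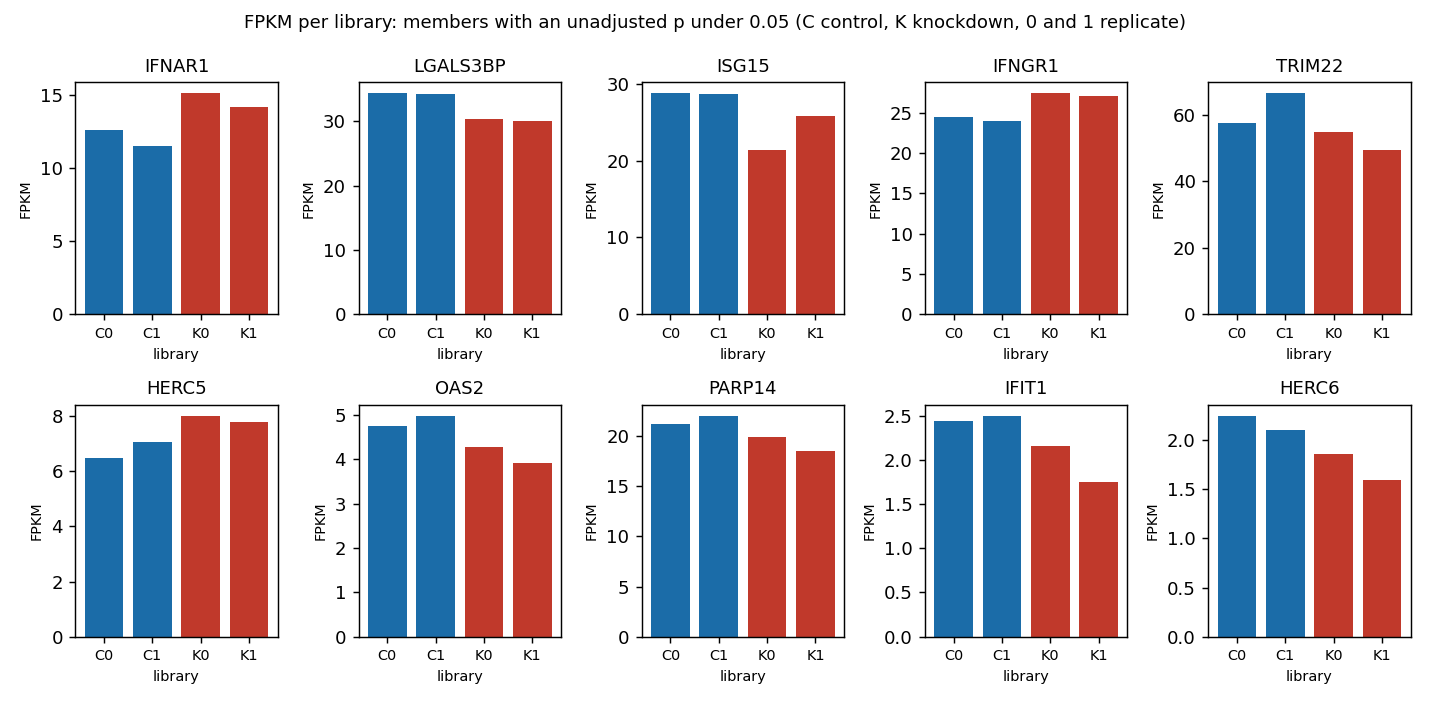
FPKM in each of the 4 libraries for the 10 members with an unadjusted limma p under 0.05, as bars from 0. In all 10 the 2 control bars lie on one side of the 2 knockdown bars, which picking genes by a small p favours. The knockdown bars are lower in 7 (14.3% of tested members, against 9.35% of all genes). They are higher in 3 (6.12%, against 7.25% of all genes). None passes an adjusted p of 0.05.

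OAS2, one of the synthetases whose product activates RNase L, stood at 4.76 and 4.98 FPKM in the controls and at 4.28 and 3.90 FPKM in the knockdown libraries. Both knockdown values were lower, with a log2 change of -0.20 ± 0.07 (limma adjusted p = 0.26), or -0.21 with the GC trend removed. OAS3, its neighbour, stood at 4.86 and 4.67 against 4.41 and 4.15 FPKM, with a log2 change of -0.13 ± 0.07 and a limma adjusted p of 0.41. OAS1, the third gene of the cluster at chr12:112906777-113011723, had a ratio of 0.855 with overlapping groups.

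IFIT1, which binds RNA lacking the cellular cap methylation, stood at 2.44 and 2.50 FPKM in the controls and at 2.15 and 1.75 FPKM in the knockdown libraries. Both knockdown values were lower, with a ratio of 0.792. IFIT1 had a log2 change of -0.23 ± 0.09 (limma adjusted p = 0.29), -0.14 without knockdown replicate 1 and -0.28 with the GC trend removed. Its neighbours at chr10:89283694-89421001 had ratios of 0.861 for IFIT3, 0.981 for IFIT2 and 1.02 for IFIT5. The IFIT3 difference lay in knockdown replicate 1. IFIT2 overlaps exons of LIPA on the opposite strand, which had 23.4 FPKM against 2.22 FPKM for IFIT2, so part of its reads may be from LIPA. ADAR stood at 77.3 and 82.0 against 78.9 and 75.1 FPKM, a ratio of 0.967. EIF2AK2, the kinase PKR that halts translation on double-stranded RNA, had a ratio of 0.995. It overlaps exons of GPATCH11 on the opposite strand, which had 11.4 FPKM against 9.22 FPKM for EIF2AK2, so the same limit holds.

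The other members with an unadjusted p under 0.05 were TRIM22, PARP14 and LGALS3BP. TRIM22, an antiviral E3 ligase of the nucleus, stood at 57.6 and 66.5 FPKM in the controls and at 54.8 and 49.5 FPKM in the knockdown libraries. Both knockdown values were lower, with means of 62.1 ± 6.26 and 52.1 ± 3.71 FPKM (SD, n = 2). The log2 change was -0.25 ± 0.08 (limma adjusted p = 0.25), -0.14 without control replicate 1 and -0.26 with the GC trend removed. PARP14, an ADP-ribosyltransferase, stood at 21.2 and 22.0 against 19.9 and 18.6 FPKM, and again both knockdown values were lower (log2 change -0.16 ± 0.06, limma adjusted p = 0.26). Its log2 change was -0.20 with the GC trend removed. PARP9 and its partner DTX3L, which lie in the same stretch of chromosome 3 and share the promoter match printed above, had ratios of 0.935 and 1.00. Their exons overlap on opposite strands, so some reads of either may belong to the other.

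LGALS3BP, a secreted glycoprotein that binds galectins, had the most even replicates of these 3. It stood at 34.3 and 34.2 FPKM in the controls and at 30.4 and 30.1 FPKM in the knockdown libraries. The log2 change was -0.17 ± 0.05 (limma adjusted p = 0.21), and -0.09 with the GC trend removed. PML, the scaffold of nuclear bodies, stood at 12.6 and 12.4 against 11.3 and 11.9 FPKM, a log2 change of -0.11 ± 0.06 with a limma adjusted p of 0.41, or -0.01 with the GC trend removed. SAMD9, a restriction factor of poxviruses, was higher in the knockdown values, 7.74 and 7.24 against 8.75 and 8.06 FPKM. Its log2 change was 0.15 ± 0.07 (limma adjusted p = 0.36), or 0.01 with the GC trend removed, while its paralogue and neighbour SAMD9L had a ratio of 0.889.

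The 14 remaining tested members, all of them induced genes, had ratios between 0.925 and 1.09, and none had an unadjusted p under 0.05. Both knockdown values were lower for SP110, a nuclear body protein (ratio 0.934), for PLSCR1, which moves membrane lipids and restricts viruses (0.948), and for MX1, a dynamin-like GTPase that traps viral nucleocapsids (0.949). They were higher for ISG20, an RNA exonuclease (1.07). The groups overlapped for MX2, SP100, TRIM21, RSAD2, IFI6, IFI27, IFI35, LAP3, PARP12 and SAMHD1. RSAD2 overlaps exons of CMPK2 on the opposite strand, which had 1.74 FPKM against 1.93 FPKM, so part of its reads may be from CMPK2.

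**Figure D5:**
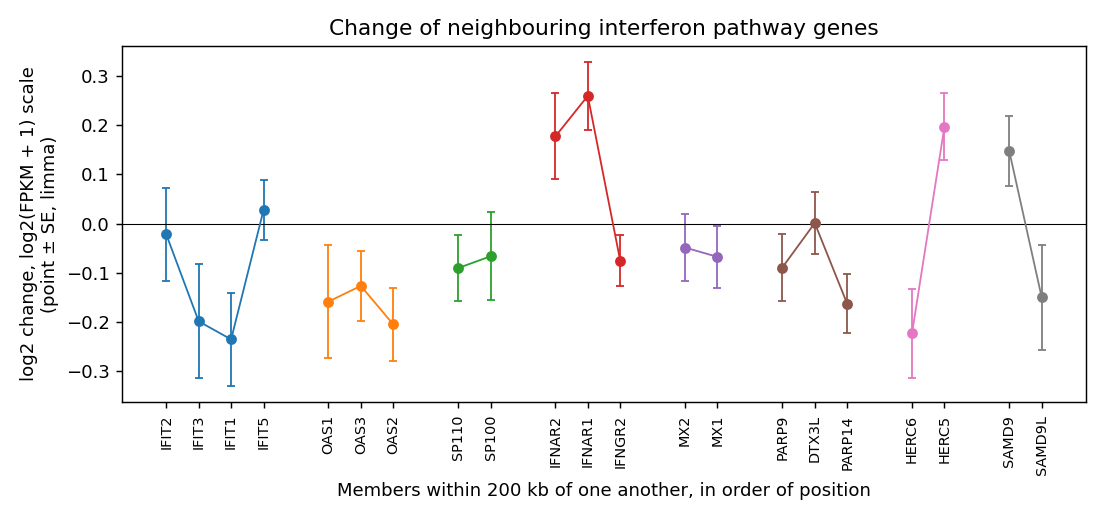
Log2 change with its SE for tested members that lie within 200 kb of each other, by cluster. HERC5 (0.20) and HERC6 (-0.22), SAMD9 (0.15) and SAMD9L (-0.15), and IFNAR1 (0.26) and IFNGR2 (-0.08) are neighbours with values on opposite sides of 0.

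The members were also split by the motif, as a description with no test. The 22 tested members with a GAAANNGAAA match had a median log2 change of -0.03, with 15 negative. Both knockdown values lay below the controls in 9 of them (40.9%). At an unadjusted limma p under 0.05, 4 were lower (18.2%) and 1 higher (4.55%). The 18 with a listed window and no match had a median of -0.07, with 13 negative. Here 5 (27.8%) lay below the controls in both knockdown libraries, and 1 was lower (5.56%) and 2 higher (11.1%) at that p. Over all genes tested, 27.7% lay below both controls, and 9.35% were lower and 7.25% higher at that p. Among the members with an unadjusted p under 0.05, ISG15, IFIT1, LGALS3BP and PARP14 (lower) and HERC5 (higher) had a match, as the printed stretches show. HERC6 (lower), IFNAR1 and IFNGR1 (both higher) had none in their windows, and TRIM22 and OAS2 (both lower) had no listed window.

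Other genes of the pathway were read from lists drawn up with earlier results of these data known, so their counts are not independent support. Of 12 further signalling genes, 11 were tested, 5 were negative, and the median log2 change was 0.00. SOCS1, a feedback inhibitor of the JAK kinases, stood at 2.43 and 2.81 FPKM in the controls and at 1.97 and 2.10 FPKM in the knockdown libraries (limma adjusted p = 0.25). IRF9 stood at 23.2 and 25.9 against 22.4 and 19.6 FPKM (limma adjusted p = 0.28). These 2, picked by a small p, were lower in both knockdown libraries. Of the 11 tested, 3 (27.3%) had both knockdown values below both controls, against 27.7% of all genes. Another 2 (18.2%) had both above, against 22.5% of all genes. PTPN6, the phosphatase SHP-1 and the most abundant of the list, was at 123 and 116 against 126 and 149 FPKM.

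Of 26 further genes of sensing, 18 were tested, 11 were negative and the median log2 change was -0.02. IFI16, a nuclear DNA sensor, stood at 64.3 and 62.5 FPKM in the controls and at 72.8 and 74.3 FPKM in the knockdown libraries (log2 change 0.21 ± 0.05, limma adjusted p = 0.19). IRF7, the factor that amplifies interferon transcription, stood at 17.6 and 17.8 against 16.4 and 16.1 FPKM (limma adjusted p = 0.32). Both genes had groups that did not overlap, which picking genes by a small p favours, and their directions were opposite. Both knockdown values lay below both controls in 6 of the 18 tested genes (33.3%), against 27.7% of all genes. They lay above in 3 (16.7%), against 22.5% of all genes. RNASEH2B, a subunit of the nuclease that removes RNA from DNA hybrids, was the most abundant at 126 and 124 against 129 and 130 FPKM.

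Of 55 further induced genes, 46 were tested, 36 were negative (median -0.09), and 13 lower (28.3%) and 3 higher (6.52%) had an unadjusted limma p under 0.05. Over all genes tested, 53.2% were negative and these shares were 9.35% and 7.25%. IFI30, a thiol reductase of the antigen-processing compartment, stood at 38.9 and 40.1 FPKM in the controls and at 28.7 and 27.9 FPKM in the knockdown libraries. IFITM3, which blocks virus entry from endosomes, stood at 18.2 and 19.5 against 13.1 and 13.0 FPKM. These gaps were wide against the replicate spread, with log2 changes of -0.47 ± 0.05 and -0.50 ± 0.06, but the limma adjusted p was 0.13 for IFI30 and 0.15 for IFITM3. B2M, the shared light chain of class I antigen presentation, was the most abundant at 2836 and 3009 against 3028 and 2942 FPKM.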

How the data were processed

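Polyadenylated RNA of 4 BLaER1 libraries, 2 control and 2 HAL7 knockdown, was analysed from 1 deposited table. Its unit is not written; the deposited values were read as FPKM from the header and the values, which are not whole. The submitters' processing notes name the build hg19 and the tools Cuffdiff 2.2.1, TopHat2 2.0.14 and Bowtie2 2.2.5. Tool options, annotation, strand handling and scaling were not given in the sources used here. A fragment count was not rebuilt, and depth came from the steps of low values in 1215 long genes with 1 transcript. Genes were named from GENCODE 29 and RefSeq (96.6% of tested genes), and positions are on GRCh38, not the authors' build. MB21D1 was matched through a RefSeq synonym.

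Differences were tested with limma 3.58.1 (R 4.3.3) on log2(FPKM + 1) over 12935 genes (mean over the 4 libraries of 1 FPKM or more, plus HAL7), two-sided, with a variance trend, 2 residual degrees of freedom and Benjamini-Hochberg adjustment over all of them. A fold change on this scale understates that of low genes. The fit was run on simulated data in which every added change was larger than that of any tested member. Whether it finds changes of the members' size was not tested. The members and lists were chosen with earlier results of these data known. Values in every library were given for all receptor and sensor members, the 12 induced members of smallest p and the 4 most abundant ones, and in each further list for the 2 genes of smallest p and the most abundant one. Of 218 list entries, 215 matched a gene. Alternatives were other pseudocounts, filters, scalings, a GC correction, a replicate block and leaving out each library.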

Additional observations from a re-analysis of the deposited data

How the results depend on the processing

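No member had a limma adjusted p under 0.05 in any setting tried, and the smallest adjusted p of a member ran from 0.13 to 0.70. Over all genes, 4 passed, against 2 with a pseudocount of 0.1, 0 without the level requirement, 1 with a mean of at least 5 FPKM, 19 with the replicate number as a block and 11 to 22 on leaving out a library. The labels do not say what a replicate number marks, and deviations of same-numbered libraries had r = 0.12 across genes. With that replicate block, 11 members had an unadjusted p under 0.05, against 10 without it. This count was 5 without the level requirement and 1 to 15 on leaving out a library (the lone library left in a group is assumed to vary like the others), with 2 and 1 left without control replicate 0 and control replicate 1. For these counts by p, the share over all genes is given for the main setting only, so a shift of the whole fit is not told apart. Members with a negative change numbered 35 in the main setting, where 53.2% of all genes were negative. On leaving out a library they numbered 27 to 36 (51.3 to 54.7% of all genes). With quantile normalization they numbered 32 (49.9% of all genes), and with median centring (51.0%) or the GC trend removed (47.8%) 33. Of 372 pairs of a named member and a setting, 359 kept their direction. Part of this was fixed in advance: other filters, the fit without a variance trend and the replicate block leave the log2 change itself the same. TYK2 reached 0.033 with the GC trend removed and -0.11 to 0.031 on leaving out a library. IFIH1 was 0.015 with quantile normalization, 0.0033 with median centring and -0.077 to 0.071 on leaving out a library. DHX58 was 0.012, 0.0034 and, with the GC trend removed, 0.061, and -0.037 to 0.031 on leaving out a library. The corresponding ranges were -0.23 to 0.0068 for JAK2 and -0.17 to 0.051 for DDX58. The cause of these reversals was not tested. Depth limits the lowest genes, those under about 1 FPKM, most.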
